A study of Mus musculus with 6 samples.

Results

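Claudins and the proteins that accompany them at the tight junction were followed as a group of 9 genes, chosen by symbol, out of the 24736 gene symbols in the expression table. The group holds the claudin genes Cldn2, Cldn3, Cldn4, Cldn7, Cldn15 and Cldn23, the occludin gene Ocln, the scaffold gene Tjp1 (ZO-1) and the adhesion gene F11r (JAM-A), and all 9 were present. RNA sequencing was performed on intestinal crypts of 12-week-old male mice, with 3 WT and 3 Mtg16-/- libraries as biological replicates. Crypts were released from the whole length of the gut with 2 mM EDTA, and no group received a drug. The labels call the knockout CRISPR-induced, whereas the study's methods describe Mtg16-/- mice received as a gift. These animals carry the deletion in the whole body and not only in the epithelium, and their genetic background is not given in the sources used here.

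Tight junctions are belts of membrane proteins that close the gap between neighboring epithelial cells just below their apical surface. Claudins are small membrane-spanning proteins that form the strands of the belt. Some of them seal the gap between cells, while others line pores that let small ions and water through. In the gut, the mixture of claudins changes between crypt and villus and along the length of the intestine, and claudin-2 is best known from the crypt. Occludin and JAM-A lie in the same belt, and ZO-1 ties claudins and occludin to the actin cytoskeleton.

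Expression was given by the authors as TPM, an estimate of transcript abundance scaled by transcript length and set to the same total in each library, so that levels of different genes can be compared. TPM keeps no read number, and the depth behind each value is therefore unknown. Mtg16 itself (Cbfa2t3, chromosome 8 from 122625136 to 122699332) stood at 3.67, 6.69 and 4.52 TPM in WT replicates 1 to 3 and at 4.62, 6.43 and 3.23 TPM in their Mtg16-/- counterparts. The groups overlapped, so this gene did not tell the genotypes apart at the level of the whole gene, and directions given here rest on the labels. All 7 epithelial markers examined, among them Epcam, Cdh1 and Vil1, were expressed, with a summed TPM between 9119 and 11878 in the 6 libraries. The summed TPM of fibroblast markers stayed at or below 4.80, of endothelial markers at or below 2.92 and of smooth muscle markers at or below 3.87. Immune cell markers summed to more, 74.9 to 138 TPM in WT and 45.6 to 95.7 TPM in Mtg16-/-. Of these 7 markers, 6 were lower on average in Mtg16-/-, and the part of immune cell RNA in the values below was not tested. Other markers did move with the groups. The summed TPM of 13 enterocyte markers was 41616, 14258 and 17581 in WT against 13990, 7922 and 7013 in Mtg16-/-, and that of 9 Paneth cell markers lay between 9979 and 23083 in WT against 28085 to 35542 in Mtg16-/-. All 8 stem cell markers and all 7 enteroendocrine markers were higher on average in Mtg16-/-, and all 6 markers of the proximal small intestine and all 6 heat shock genes were lower. No marker gene was called in the test described next, and the part of these shifts in the values below was not tested. WT replicate 2 and, more weakly, WT replicate 3 also carried RNA of stomach genes, with a summed TPM of 630 and 114 over 9 genes. Mtg16-/- replicate 3 had a sum of 37.1, and the remaining libraries had at most 3.75.

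No difference between Mtg16-/- and WT crypts passed the test for any of the 9 tight junction genes. limma was run on log2(TPM + 1) for the 12268 genes whose mean TPM reached 1, with Benjamini-Hochberg adjustment over that whole set. Of the 9 genes, limma called 0 at an adjusted p below 0.1 (background 0.0326% of all tested genes), and 0 had an unadjusted p under 0.05 (background 14.6%). The small share called belongs to this fit on TPM. From its own analysis of this RNA-seq, the paper reports a longer list of differentially expressed genes, and that list is not compared here. The lowest value of a group never lay above the highest of the other (0 of 9), whereas the groups did not overlap in 21.0% of all tested genes. By the mean of log2(TPM + 1), 6 of the 9 genes were lower in Mtg16-/- and 3 were higher, while 53.6% of all tested genes were lower. Cldn4, counted here as lower, had the higher mean TPM in Mtg16-/- (35.7 against 34.9), and its sign turned in 4 of 15 refits with other settings. Several of these refits cannot change a fold change, as described below. The median absolute log2 fold change was 0.13 for the 9 genes and 0.19 for all tested genes.

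**Figure D1:**
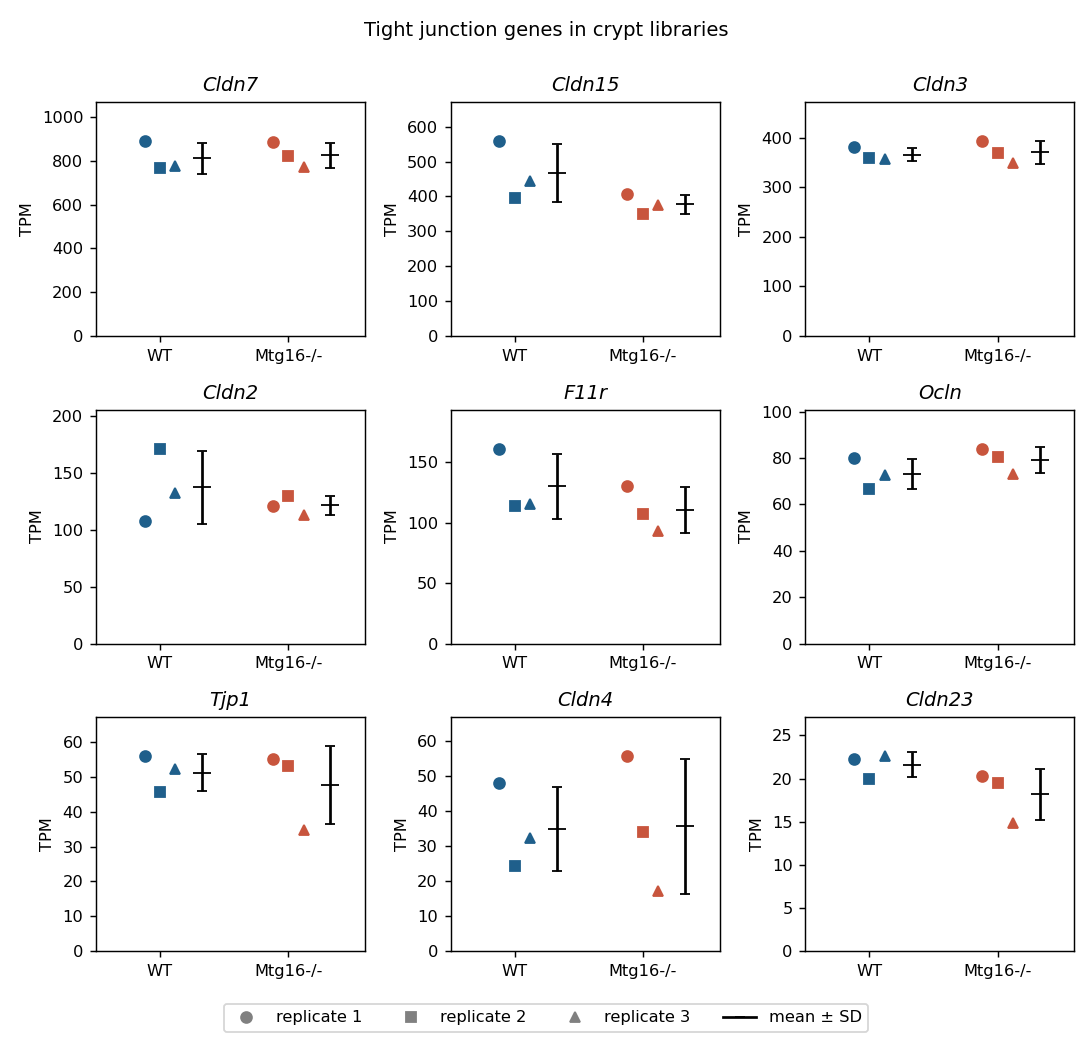
TPM of the 9 tight junction genes in each library, with a linear axis from 0 for each gene and symbols for the replicate number. Bars give the mean ± SD of 3 libraries. In every panel the WT and Mtg16-/- values overlap, from Cldn7 with 765 to 891 TPM down to Cldn23 with 14.9 to 22.6 TPM.

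Claudin-15, which forms pores for small cations and is the claudin best known from sodium-coupled nutrient uptake in the small intestine, had the lowest fold change of the group. Cldn15 (chromosome 5 from 136967869 to 136975845) reached 559, 397 and 445 TPM in WT. Its TPM in Mtg16-/- was 406, 351 and 375. WT replicate 1 held the highest value, and the groups overlapped only because Mtg16-/- replicate 1 lay just above WT replicate 2. The mean was 467 ± 83.5 TPM in WT and 377 ± 27.5 TPM in Mtg16-/- (SD, n = 3 each). The log2 fold change was -0.30 (standard error 0.16, 95% interval -0.67 to 0.08, limma adjusted p = 0.422), which is 0.81-fold with an interval from 0.63 to 1.05, and it was -0.16 without WT replicate 1. An exact permutation test of Cldn15 gave p = 0.2 (two-sided), where 3 libraries against 3 cannot go below 0.1. WT replicate 1 also held the highest enterocyte sum of 41616 TPM, and the part of enterocyte content in the Cldn15 values was not tested. In such bulk samples, fewer cells of a type and less RNA per cell cannot be told apart.

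Claudin-2 lines pores for sodium and water and is found in the crypt. Cldn2 (chromosome X from 139800808 to 139811386) had a TPM of 108, 171 and 133 in WT and of 121, 130 and 113 in Mtg16-/-. The lowest and the highest of the 6 values were both WT, so that the 3 Mtg16-/- libraries lay within the WT range. The log2 fold change was -0.15 (standard error 0.18, 95% interval -0.56 to 0.25, limma adjusted p = 0.697). The direction rested on WT replicate 2, the library with the most stomach RNA, since without it the log2 fold change was 0.02. Whether the stomach RNA contributed to the Cldn2 value of that library was not tested. The ratio of the 2 pore-forming claudins, Cldn2 over Cldn15, ranged from 0.193 to 0.432 in WT and from 0.298 to 0.370 in Mtg16-/-, and the groups overlapped.

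MTG corepressors are recruited to DNA by factors that bind E-box sequences. The stretch from 250 bases before to 50 bases after a listed gene start was therefore searched for the E-box CAGCTG. This motif reads the same on both strands, and the promoters were those of RefSeq (GRCm38.p6). For Tjp1 the only listed start lay inside the gene (chr7:65371195-65371494, minus strand), so its outer start at 65527850 was not searched. For 8 of the 9 genes, 10 promoters were found, of which 3, each of another gene, held the motif, as did 16.3% of 32817 promoters of the same length. The promoters of the 3 genes are shown to place these motifs, which are in capitals. Cldn15 held 2 of them, starting 218 and 28 bases before the gene start (chr5:136967619-136967918, plus strand), Cldn2 held 1 at 61 bases (chrX:139800558-139800857, plus strand) and Cldn4 held 1 at 221 bases (chr5:134946885-134947184, minus strand).
Cldn15: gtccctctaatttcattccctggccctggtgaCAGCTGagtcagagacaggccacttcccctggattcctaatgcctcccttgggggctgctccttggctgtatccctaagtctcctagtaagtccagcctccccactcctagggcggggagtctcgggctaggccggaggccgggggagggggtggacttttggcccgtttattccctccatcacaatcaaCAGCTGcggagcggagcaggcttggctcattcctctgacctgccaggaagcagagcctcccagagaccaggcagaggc
Cldn2: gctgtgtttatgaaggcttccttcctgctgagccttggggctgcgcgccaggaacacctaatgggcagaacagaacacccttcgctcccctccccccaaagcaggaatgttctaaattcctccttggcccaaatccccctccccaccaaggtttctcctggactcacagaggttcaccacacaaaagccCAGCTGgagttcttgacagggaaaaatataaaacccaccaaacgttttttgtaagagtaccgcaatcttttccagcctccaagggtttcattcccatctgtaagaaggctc
Cldn4: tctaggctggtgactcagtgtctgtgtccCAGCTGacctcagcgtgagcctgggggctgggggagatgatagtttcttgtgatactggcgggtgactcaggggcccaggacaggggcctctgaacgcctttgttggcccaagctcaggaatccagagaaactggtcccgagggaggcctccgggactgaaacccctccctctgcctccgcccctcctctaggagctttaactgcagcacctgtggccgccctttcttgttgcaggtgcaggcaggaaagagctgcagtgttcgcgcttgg
These matches describe letters in the sequence, and binding at them was not examined here. None of the 3 genes was called between the genotypes.

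Claudin-7 was the most abundant claudin. It lies along the lateral membrane as well as at the junction and binds the adhesion protein EpCAM. Cldn7 (chromosome 11 from 69964779 to 69967886) had a TPM of 891, 765 and 776 in WT and of 884, 820 and 771 in Mtg16-/-. Values of the groups interleaved, and the means of 810 ± 69.8 and 825 ± 56.9 TPM (SD, n = 3 each) differed by less than the SD of either group. The log2 fold change was 0.03 (95% interval -0.31 to 0.36, limma adjusted p = 0.946).

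Claudin-3 and claudin-4 belong to the sealing claudins, and their genes are neighbors on chromosome 5, 39279 bases apart, each with 1 exon. Cldn3 (from 134986214 to 134987476) was the steadiest gene of the group, with a TPM of 381, 359 and 358 in WT and of 394, 369 and 349 in Mtg16-/-. Its log2 fold change was 0.02, with a 95% interval from -0.26 to 0.30 that corresponds to 0.83-fold to 1.23-fold (limma adjusted p = 0.961). Cldn4 (from 134945123 to 134946934) varied most, with a TPM of 47.9, 24.2 and 32.5 in WT and of 55.7, 34.1 and 17.2 in Mtg16-/-. Both the highest and the lowest value were thus Mtg16-/-, and the coefficient of variation within that group was 54.1% for Cldn4 against 6.05% for its neighbor Cldn3. The log2 fold change of Cldn4 was -0.06 (standard error 0.40, limma adjusted p = 0.956), with a 95% interval that ran from 0.50-fold to 1.83-fold.

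Claudin-23, a less studied claudin, was the least abundant of the group. Cldn23 (chromosome 8 from 35824709 to 35826559, 1 exon) had a TPM of 22.3, 20.0 and 22.6 in WT and of 20.3, 19.4 and 14.9 in Mtg16-/-. Only Mtg16-/- replicate 1 reached into the WT range, above WT replicate 2. The log2 fold change was -0.25 (standard error 0.15, 95% interval -0.60 to 0.10, limma adjusted p = 0.464), and an exact permutation test of Cldn23 gave p = 0.2 (two-sided). Without Mtg16-/- replicate 3, the lowest library, the log2 fold change of Cldn23 was -0.11.

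No membrane partner of the claudins was called either. Occludin, a membrane-spanning protein of the junction strands, had the highest fold change of the group. Ocln (chromosome 13 from 100496504 to 100552718) had a TPM of 79.8, 66.7 and 72.9 in WT and of 84.1, 80.4 and 73.1 in Mtg16-/-. All 3 Mtg16-/- values lay above WT replicate 2 and 3, but WT replicate 1 lay between them. The log2 fold change was 0.11 (standard error 0.12, 95% interval -0.17 to 0.40, limma adjusted p = 0.670), and 0.051 without WT replicate 2. JAM-A, an immunoglobulin-type adhesion protein, is encoded by F11r (chromosome 1 from 171437561 to 171464593). F11r had a TPM of 161, 114 and 115 in WT and of 131, 108 and 93.1 in Mtg16-/-. In both groups replicate 1 was highest, and the log2 fold change was -0.23 (standard error 0.18, 95% interval -0.66 to 0.20, limma adjusted p = 0.569). It was -0.065 without WT replicate 1 and -0.11 without Mtg16-/- replicate 3.

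ZO-1 is the scaffold that holds the membrane proteins of the junction in place. Tjp1 (chromosome 7 from 65296165 to 65527850) had a TPM of 55.9, 45.6 and 52.1 in WT and of 55.0, 53.0 and 34.6 in Mtg16-/-. A single low value, that of Mtg16-/- replicate 3, set the direction: the log2 fold change was -0.13 with all libraries (95% interval -0.57 to 0.31, limma adjusted p = 0.770) and 0.08 without that library.

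**Figure D2:**
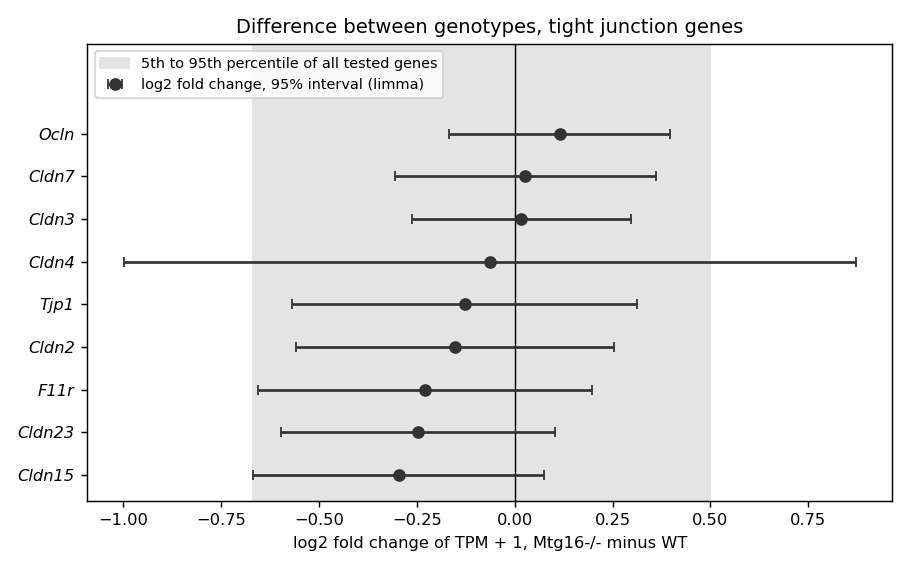
Log2 fold change of each tight junction gene, Mtg16-/- minus WT, on the log2(TPM + 1) scale, with its 95% interval from limma. The shaded band runs from the 5th to the 95th percentile of all tested genes, -0.67 to 0.50, and every interval contains 0, the widest being that of Cldn4.

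Values of different genes shared a pattern over the libraries. Replicate 1 held the highest value of the WT group in 7 of the 9 genes, and of the Mtg16-/- group in 8. Mtg16-/- replicate 3 held the lowest value of its group in 8 genes. Among all tested genes these shares were 43.8%, 33.1% and 45.7%, and the 9 genes come from the same libraries and are not independent. The exceptions in WT were Cldn2, which was lowest in replicate 1, and Cldn23. The tested genes nearest in profile to Cldn15 over the 6 libraries were Coq10a, 4833439L19Rik and Aldh9a1, with a root mean square difference of 0.02 to 0.03 on the log2 scale, against 0.22 for the distance of Cldn15 from its own mean. These were picked as the closest of 12267 genes.

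In order of mean TPM over the 6 libraries, Cldn7 with 818 was followed by Cldn15 with 422, Cldn3 with 368, Cldn2 with 129, F11r with 120, Ocln with 76.2, Tjp1 with 49.4, Cldn4 with 35.3 and Cldn23 with 19.9. Cldn7 was separated from all others, with a lowest value of 765 above the highest value of Cldn15 of 559. Cldn15 and Cldn3 were not separated, since their ranges overlapped, although Cldn15 was higher in 5 of 6 libraries. The ranges also overlapped between Cldn2 and F11r, between Tjp1 and Cldn4 and between Cldn4 and Cldn23, whereas Cldn3 lay above Cldn2, F11r above Ocln and Ocln above Tjp1 in their whole ranges. Cldn7, Cldn15 and Cldn3 stood at percentiles 98.5, 97.3 and 96.9 of mean TPM among tested genes, and Cldn23 at 48.9.

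The table held 31 claudin symbols, of which 13 were listed at 0 in every library and 8 had a mean TPM of at least 1. The 6 claudins of the group made up 98.1% to 98.9% of the summed claudin TPM, which was 1862 ± 148 in WT and 1777 ± 121 in Mtg16-/- (SD, n = 3 each). Within this sum the shares of Cldn7, Cldn3 and Cldn15 did not overlap between the groups, although the TPM of each did. Cldn7 took 43.9%, 43.4% and 43.3% of the claudin sum in WT and 46.3%, 46.8% and 46.1% in Mtg16-/-. Cldn3 took 18.8%, 20.4% and 20.0% in WT and 20.6%, 21.1% and 20.9% in Mtg16-/-. Cldn15, in turn, took 27.5%, 22.5% and 24.8% in WT and 21.2%, 20.0% and 22.4% in Mtg16-/-, so that its highest Mtg16-/- share lay just below its lowest WT share. For Cldn2, Cldn4 and Cldn23 the shares overlapped. Outside the group, the share of Cldn12 lay just apart, at 0.97% to 1.34% in WT and 1.35% to 1.71% in Mtg16-/-. When the TPM of every tested gene was divided by the claudin sum of its library in the same way, the groups did not overlap in 19.7% of genes. Most of these genes are not part of the sum, unlike the claudins, so this is only a rough comparison. The shares add up to a whole, so a lower share of Cldn15 raises the others. With Cldn15 left out of the sum, a setting chosen after the data were seen, the share of Cldn7 was 60.5%, 56.0% and 57.6% in WT and 58.8%, 58.6% and 59.4% in Mtg16-/-, and the groups overlapped. Those of Cldn3 overlapped as well. Shares of Cldn23 then lay apart, at 1.46% to 1.68% in WT and 1.14% to 1.39% in Mtg16-/-. The ratio of Cldn15 to Cldn7, which does not depend on the other claudins, was 0.628, 0.519 and 0.574 in WT and 0.459, 0.428 and 0.486 in Mtg16-/-. Every Mtg16-/- ratio was below every WT ratio, a separation also met by 21.3% of the other tested genes when divided by Cldn7. Ratios of single claudins were not planned, and those of Cldn2 to Cldn15 and of Cldn4 to Cldn3 overlapped between the groups.

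**Figure D3:**
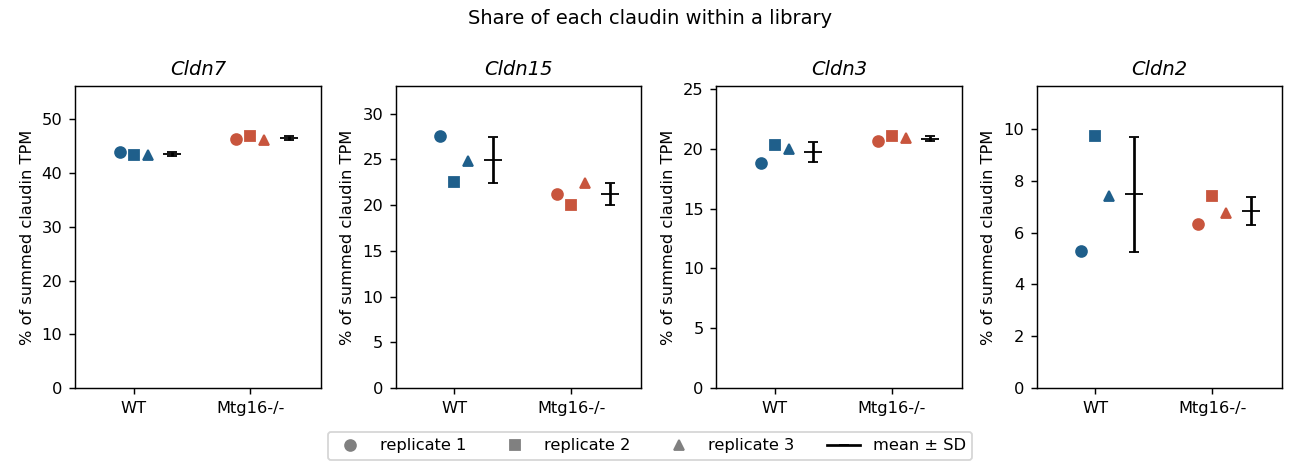
Share of the summed claudin TPM taken by Cldn7, Cldn15, Cldn3 and Cldn2 in each library, in percent on axes from 0, with the mean ± SD of 3 libraries. The Cldn7 and Cldn3 shares lie higher in all Mtg16-/- libraries, the Cldn15 share lies lower (20.0% to 22.4% against 22.5% to 27.5%), and the Cldn2 shares overlap.

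Of the claudins outside the group, only Cldn12 and Cldn8 passed the limit of mean expression. Cldn12, which lacks the usual tail for binding ZO proteins, had a TPM of 19.8, 19.7 and 24.0 in WT and of 25.7, 25.5 and 28.5 in Mtg16-/-. The groups did not overlap, but Cldn12 was not called (log2 fold change 0.32, standard error 0.13, limma adjusted p = 0.325). Cldn8, a claudin of the colon, lay between 0.11 and 3.00 TPM with overlapping groups (log2 fold change 0.74, standard error 0.40, limma adjusted p = 0.414). Cldn18, the claudin of the stomach lining, was listed at 2.68 and 0.76 TPM in WT replicate 2 and 3 and at no more than 0.08 TPM in the other 4 libraries. The same WT libraries carried the stomach gene Tff1 at 273 and 47.9 TPM, which was listed at 0 in the other 4, and Cldn18 was below the limit for testing.

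Among 82 symbols of further junction genes, older and newer names included, 75 were in the table, 8 were listed at 0 in every library and 50 were tested. Of these 50, 0 were called by limma (background 0.0326% of all tested genes) and 4 had an unadjusted limma p under 0.05 (background 14.6%). The groups did not overlap in 8, of which 2 were higher and 6 lower (background 21.0%, with 9.94% higher and 11.1% lower). In all, 36 of the 50 were lower on average, against 53.6% of all tested genes. The median log2 fold change of the 50 was -0.12, against -0.03 for all tested genes and -0.13 for the 9 tight junction genes. Of the occludin relatives and angulins, some of which close corners where 3 cells meet, 4 were tested. Marveld2 (tricellulin) had a TPM of 24.9, 25.6 and 25.6 in WT and of 32.4, 31.8 and 27.4 in Mtg16-/-, without overlap (log2 fold change 0.25, limma adjusted p = 0.368). Marveld2 and Cldn12 were the 2 genes that lay apart on the higher side. Marveld3 and Ildr1 had the lowest and the highest log2 fold change of this list, -0.11 and 0.36, with overlapping groups.

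Of the 3 tested junctional adhesion genes outside the group, Igsf5 (JAM-4) had a TPM of 85.8, 55.1 and 57.2 in WT and of 51.8, 45.9 and 36.1 in Mtg16-/-. The groups did not overlap (log2 fold change -0.54, standard error 0.21, limma adjusted p = 0.311), and WT replicate 1 again held the highest value. Esam had the highest log2 fold change of this list at 0.10, with overlapping groups (limma adjusted p = 0.806). Of the 12 tested scaffold genes, 8 were lower and 4 were higher on average. Cgn, which encodes cingulin, a link between the junction and actomyosin, had a log2 fold change of -0.35 (limma adjusted p = 0.391), and Sympk one of -0.30 (limma adjusted p = 0.331). Neither overlapped between the groups, while Amot, with the highest log2 fold change of the scaffold genes at 0.34, did (limma adjusted p = 0.442). All 6 polarity genes overlapped, with log2 fold changes from -0.21 for Pard6b to 0.13 for Prkci, where 21.0% of all tested genes did not overlap.

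Of the 7 tested partners and regulators of claudins, 2 lay apart, both lower (background 21.0% of all tested genes, with 11.1% lower). Mylk, which encodes the myosin light chain kinase that opens tight junctions by contraction of the actin ring, had a TPM of 89.0, 55.6 and 60.1 in WT and of 54.0, 43.0 and 38.6 in Mtg16-/- (log2 fold change -0.57, standard error 0.20, limma adjusted p = 0.298). Mylk is also a gene of smooth muscle, whose markers summed to 1.17 to 3.87 TPM in WT and 2.55 to 2.78 TPM in Mtg16-/-. St14, which encodes the membrane protease matriptase, had a log2 fold change of -0.35 (limma adjusted p = 0.345), and Prss8 had the highest of the list with 0.15. Genes of adherens junctions and desmosomes, which join cells below the tight junction, come from the same libraries and are not independent. Of 16 tested, 15 were lower on average (background 53.6% of all tested genes) and 1, Nectin3, was higher (0.15). Cdh17, the liver-intestine cadherin, had the lowest log2 fold change of these at -0.45 with overlapping groups (limma adjusted p = 0.387). Nectin1 was the only gene of this list whose groups did not overlap (-0.30, limma adjusted p = 0.345). Its limma adjusted p was 0.0829 with array weights, a setting that called 855 genes against 4 in the main fit. Igsf5 and Mylk were called under another such setting, given below with its count of called genes.

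**Figure D4:**
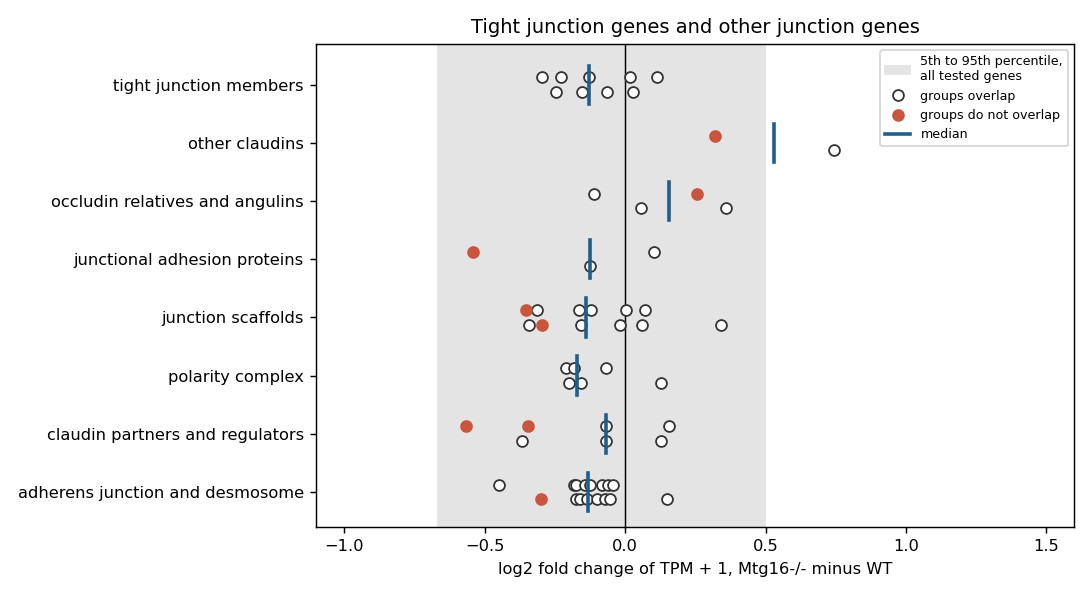
Log2 fold change, Mtg16-/- minus WT on the log2(TPM + 1) scale, of the 9 tight junction genes and 50 other tested junction genes by list, with the median of each list as a line and the 5th to 95th percentile of all tested genes shaded. Filled points mark the 8 genes whose groups do not overlap, none of them among the 9 tight junction genes and none called.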

How the data were processed

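RNA-seq libraries were prepared from 200 ng total RNA of isolated crypts after ribosomal RNA depletion, with 14 PCR cycles, from 3 WT and 3 Mtg16-/- mice. The submitters' processing notes list cutadapt 1.9.1, STAR 2.5.2a, RSEM 1.3.0, DESeq2 1.12.3 and the mm10 build. The deposited table holds TPM values from RSEM, which the authors rounded to 2 decimals. TPM are no counts, so no count model was run.

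TPM values were transformed as log2(TPM + 1), which understates changes of low genes. Genes averaging 1 TPM or more were tested with limma 3.58.1 in R 4.3.3 (intensity trend, no covariates, Benjamini-Hochberg adjustment, called at 0.1). Single genes were also compared by an exact permutation test. The fit was tested on simulated data. Within-library shares and gene lists were described without a test. The members and lists were chosen with earlier results of these data known. Named genes are the members, the lowest, the highest and any called gene of each list, and the 3 genes nearest in profile to the members with the lowest and highest fold change, the latter not reported here. Cldn12, Marveld2, Sympk, St14, Nectin1 and Cldn18 were named after their values were seen, or because their groups did not overlap. Positions and promoters are from RefSeq GRCm38.p6, the assembly of mm10, and exons from GENCODE vM21. Alternatives were another pseudocount, other filters, scalings and moderation, library weights, a replicate block, each library left out and a threshold of 0.05.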

Additional observations from a re-analysis of the deposited data

How the results depend on the processing

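None of the 9 tight junction genes was called under any of the 16 alternatives. Over the whole table the number of called genes moved from 4 to 15 with a mean TPM of at least 5, 20 with robust moderation, 855 with array weights and 1 after quantile normalization, and to 0 without a filter, after median-ratio rescaling, without the intensity trend and at an adjusted p under 0.05. Leaving out each library gave 0 to 20, with 20 without WT replicate 1, 2 without Mtg16-/- replicate 2, 1 without Mtg16-/- replicate 1 and 0 without Mtg16-/- replicate 3. The causes of these shifts were not tested. Pairing by replicate number is undecided. Deviations of same-numbered libraries correlated at r = 0.429, 0.0753 and 0.237, the best of each Mtg16-/- library. WT replicate 2 correlated best with Mtg16-/- replicate 3 (0.198). With the replicate block 1201 genes were called, none of the 9 members, and 2 other junction genes, Igsf5 (adjusted p = 0.059) and Mylk (0.0403). Array weights called 1 other junction gene, Nectin1 (0.0829). The count of other junction genes whose groups did not overlap moved from 8 of 50 to 5 after quantile normalization, 14 without WT replicate 2 and 21 without Mtg16-/- replicate 1, where the share over all tested genes was 22.0%, 32.5% and 38.7%.

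After quantile normalization 1 of 9 members, Ocln, no longer overlapped between the groups, against 22.0% of all tested genes. With a library left out, between 0 and 3 members did not overlap (27.7% to 38.7% of all tested genes): Cldn2 and Ocln without WT replicate 1, Cldn15 and Cldn23 without WT replicate 2, these and F11r without Mtg16-/- replicate 1, and Ocln without Mtg16-/- replicate 3. The log2 fold changes of Cldn15 (-0.41 to -0.16), Cldn23 (-0.33 to -0.11), Ocln (0.051 to 0.21) and F11r (-0.36 to -0.065) kept their sign in all 15 refits. Other filters, no intensity trend, robust moderation and the replicate block leave the fold change itself as it is. Those refits could therefore not turn a sign. The log2 fold change of Cldn4 turned to 0.012 after quantile normalization and 0.17 with array weights. It ranged from -0.45 without Mtg16-/- replicate 1 to 0.37 without Mtg16-/- replicate 3 (0.19 without WT replicate 1). Leaving out 1 library moved Cldn2 between -0.31 (WT replicate 1) and 0.019 (WT replicate 2), and Tjp1 between -0.24 (Mtg16-/- replicate 1) and 0.081 (Mtg16-/- replicate 3). Cldn7 ranged from -0.025 (Mtg16-/- replicate 1) to 0.096 (WT replicate 1), with -0.014 and -0.0032 without WT replicate 2 and 3, and Cldn3 from -0.028 (Mtg16-/- replicate 1) to 0.059 (Mtg16-/- replicate 3), and Cldn3 reached 0.12 after quantile normalization. The difference in claudin share was 2.89 percentage points for Cldn7 and 1.15 for Cldn3, and moved to 0.88 and 0.23 with Cldn15 left out of the sum. Without WT replicate 1 it fell from 1.15 to 0.69 for Cldn3 and, for Cldn15, went from -3.74 to -2.45 percentage points. Unknown depth limits these data, and the widest interval, that of Cldn4, does not exclude a change to 0.50-fold.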
